A study of Homo sapiens with 14 samples.

Results

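The 39 HOX genes of the human genome were examined in RNA-seq counts of the neuroblastoma line SK-N-BE2, whose genome carries extra copies of the oncogene MYCN. Members were all genes whose symbol is HOX, a cluster letter from A to D and a number, and they made up 39 of the 19923 protein-coding genes in the count tables. The 14 libraries formed 7 groups of 2 replicates in 2 labelled batches. In batch 1, cells of wild-type genotype received either water (H2O) or CoCl2 at 10 µM or at 50 µM. Cobalt chloride, the compound added, stabilises hypoxia-inducible factors. In batch 2, untreated cells were labelled wild type (WT) or TET2 knockout 1, 2 or 3. TET2 is a dioxygenase that oxidises 5-methylcytosine to 5-hydroxymethylcytosine, and the title of the series sets this mark beside the Polycomb repressive complex PRC2. All groups were grown in RPMI1640 with fetal bovine serum, and the libraries were made from poly(A) RNA. The labels give neither the exposure time, the way the knockouts were made, nor whether a knockout number is 1 clone. They do not say that replicates were separate cultures, so the p-values refer to the spread between these libraries, estimated with all genes together.

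HOX genes encode homeodomain transcription factors that give cells their position along the head-to-tail axis of the embryo. They lie in HOXA, HOXB, HOXC and HOXD, clusters on separate chromosomes, and genes of the same number in different clusters are paralogs. Within a cluster, low-numbered genes are used early and towards the head, and high-numbered genes later and towards the tail. Retinoic acid and CDX factors switch clusters on, Polycomb complexes keep unused stretches silent, Trithorax (KMT2) complexes keep used stretches active, and PBX and MEIS proteins bind DNA together with HOX proteins. Neuroblastoma arises from the sympathetic branch of the trunk neural crest.

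Libraries of batch 1 held 31214128 to 39540111 counts in all, and those of batch 2 held 52095024 to 59263320. The level of a gene is given as CPM, counts scaled to a common library total after TMM normalization, and levels of different genes are compared only after division by exon length in kilobases (CPM per kb). A count of 0 in a library allows up to 3 fragments, which are 3 counts in batch 1 (0.0759 to 0.0961 CPM) and 6 counts in batch 2 (0.101 to 0.115 CPM), where a fragment mostly gave 2 counts, and this limit covers counting error only. Of 11 markers of adrenergic neuroblastoma, 10 were above 1 CPM in both libraries of every group. TET2 mRNA stood at 70.8 and 64.8 CPM in WT, 80.4 and 76.6 in knockout 1, 87.4 and 91.1 in knockout 2 and 68.2 and 75.4 in knockout 3. It was thus not lower in any knockout, which leaves the labels unchecked by the level of TET2 mRNA, and the groups are called labelled knockouts. TET2 mRNA was higher than in WT in knockout 1 (log2 fold change 0.21, edgeR adjusted p = 0.000664) and knockout 2 (0.40, edgeR adjusted p = 3.85e-12). In knockout 3 the change was 0.08 (edgeR adjusted p = 0.301).

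SK-N-BE2 cells used HOXC and HOXD and had almost no RNA from HOXA and HOXB. Over the 14 libraries the HOX genes received 116314 counts, of which 79555 (68.4%) fell on HOXC and 36740 (31.6%) on HOXD. These pooled shares weigh batch 2 more, since a fragment mostly gave 2 counts there. By batch, HOXC and HOXD took 72.8% and 27.2% in batch 1 and 65.9% and 34.1% in batch 2. HOXA received 9 counts and HOXB received 10. Within single libraries HOX genes together took 185.9 to 198.2 CPM of the unscaled total in batch 1 and 158.2 to 178.7 in batch 2.

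The HOXA cluster (chr7:27093313-27200091 in GRCh38, 11 genes over 106.8 kb, minus strand) had 8 genes without a count in any of the 14 libraries, and its highest count in a library was 2. HOXA3, HOXA7 and HOXA13 had the 9 counts. The HOXB cluster (chr17:48528526-48729178, 10 genes over 200.7 kb, minus strand) had 5 genes without a count, and the other 5 (HOXB5, HOXB6, HOXB7, HOXB9 and HOXB13) had at most 2 counts in a library. No HOXA or HOXB gene passed the filter on low counts, so none entered a test. All of them were at or under the limit that a count of 0 allows in every library. The plot of levels by cluster shows these genes below the band of that limit.

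**Figure D1:**
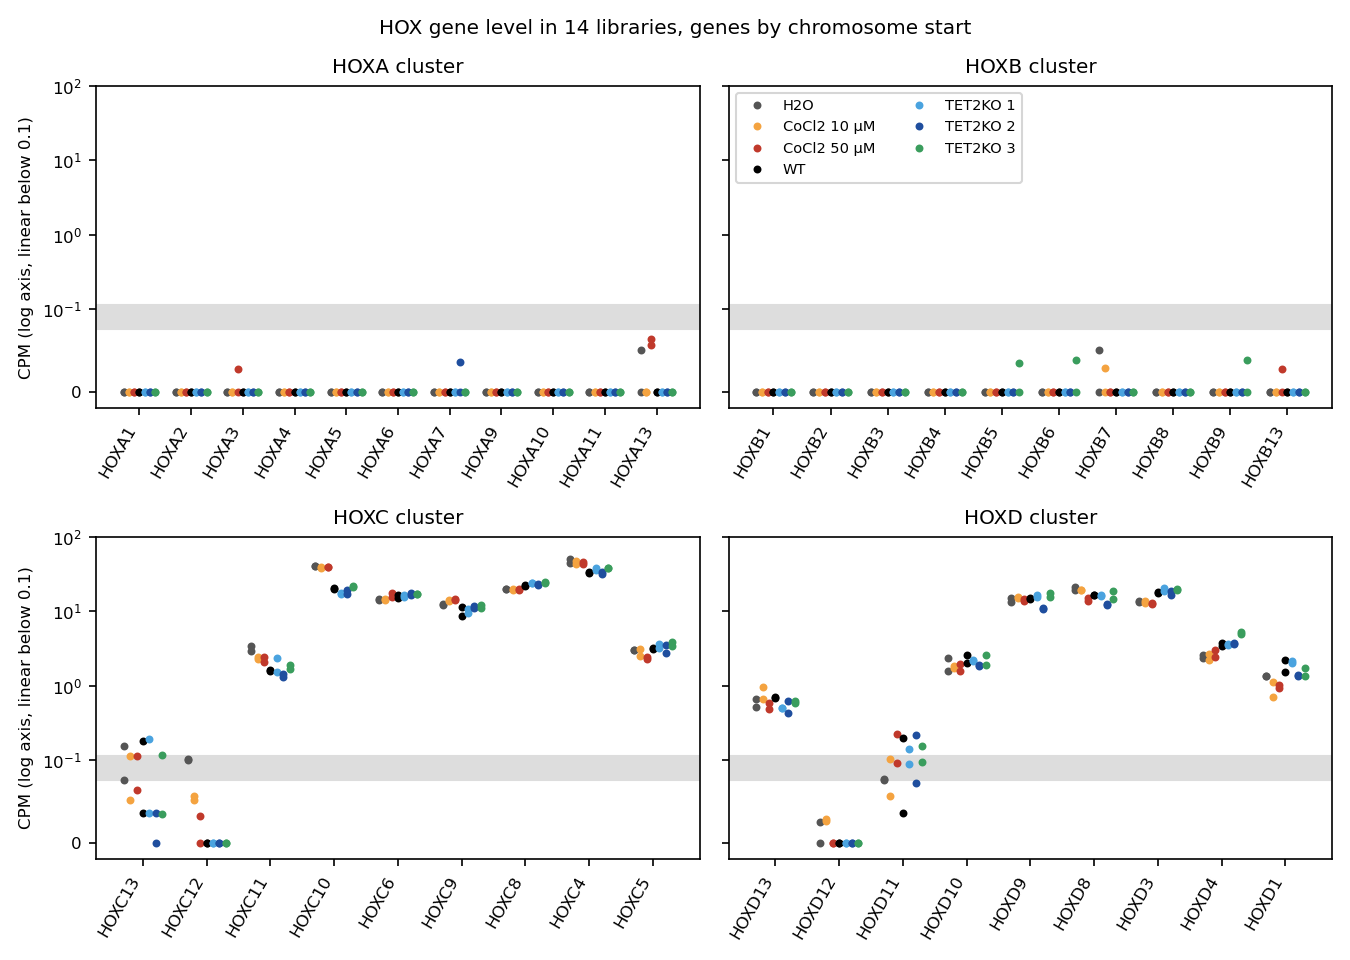
Level of each of the 39 HOX genes in CPM (log axis, linear below 0.1) in the 14 libraries. Genes stand in order of chromosome start, points are single libraries coloured by group, and the grey band is the limit that a count of 0 allows (0.0759 to 0.115 CPM). HOXA and HOXB genes lie below the band, and most HOXC and HOXD genes lie far above it.

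Next to HOXB, SKAP1 and TTLL6 had at most 8 counts in a library, and genes farther out were expressed. HIBADH, a valine catabolism enzyme beyond the HOXA13 end of HOXA, stood at 40.4 and 39.4 CPM in H2O and 16.9 and 18.1 CPM in WT. CALCOCO2, an autophagy receptor beyond HOXB, stood at 69.6 and 68.2 CPM in H2O and 44.9 and 43.9 CPM in WT. EVX1, the homeobox gene 42.6 kb beyond HOXA, had no count in any library. EVX2, which lies 8.8 kb beyond HOXD13, stood at 0.179 and 0.151 CPM in H2O and 0.0728 and 0 CPM in WT. Its highest levels were 0.399 CPM in replicate 1 of 10 µM CoCl2 and 0.342 CPM in replicate 1 of knockout 3. By comparison LNPK, a membrane-shaping protein of the endoplasmic reticulum on the same side of HOXD as EVX2, stood at 158 and 163 CPM in H2O. Past the HOXD1 end, MTX2, a mitochondrial import protein, stood at 77.9 and 78.9 CPM.

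The HOXC cluster (chr12:53938831-54056030, 9 genes over 117.2 kb, plus strand) had 7 genes above 10 counts in a library, and the HOXD cluster (chr2:176092721-176190907, 9 genes over 98.2 kb, plus strand) had 8. HOXC12, HOXC13 and HOXD12 stayed at or below 10 counts in each library. HOXC12 and HOXD12 had no count in any batch 2 library. With batch 1 and batch 2 filtered separately, 14 members passed in batch 1 (HOXC4, HOXC5, HOXC6, HOXC8, HOXC9, HOXC10, HOXC11, HOXD1, HOXD3, HOXD4, HOXD8, HOXD9, HOXD10 and HOXD13) and 15 in batch 2, where HOXD11 was added. HOXD11 reached at most 12 counts in a library, in batch 2, where a fragment mostly gave 2 counts. Its mean level was near the counting limit in both batches (0.0761 CPM in H2O, 0.160 at 50 µM CoCl2 and 0.118 in WT). Its passing in batch 2 alone therefore does not show a higher level there.

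Read by paralog group, groups 2, 7 and 12 had no member that passed. Groups 2 and 7 have members in HOXA and HOXB alone, and group 12 has members in HOXC and HOXD alone. Groups 4, 8, 9 and 10 each had 2 members that passed in both batches, 1 in HOXC and 1 in HOXD. Among these pairs the HOXC gene was higher per kb in group 4, where HOXC4 stood at 17.3 and HOXD4 at 2.17 CPM per kb in H2O, and in group 10, where HOXC10 stood at 17.2 and HOXD10 at 0.736. In group 8 HOXC8 stood above HOXD8, at 8.29 and 7.68 CPM per kb in H2O and at 9.27 and 6.28 in WT. In group 9 HOXC9 (7.33) and HOXD9 (7.59) overlapped between the H2O libraries, and in WT HOXD9 (7.77 to 8.16) lay above HOXC9 (5.19 to 6.94).

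Levels varied with position in both active clusters. In HOXD the level was highest in the middle, at HOXD9 and HOXD8 (7.59 and 7.68 CPM per kb in H2O, 7.96 and 6.28 in WT). It was lower on the HOXD1 side, at HOXD3 (3.83 in H2O and 5.01 in WT), HOXD4 (2.17 and 3.16) and HOXD1 (0.720 and 0.990). HOXD4 (chr2:176151550-176153226) lies inside the annotated span of HOXD3 (chr2:176136612-176173102), so no stepwise fall by position can be read from these genes. Towards the other end the level fell to 0.736 and 0.861 at HOXD10 and to 0.0360 and 0.0557 at HOXD11. HOXD12 was at or below the counting limit, and HOXD13 stood at 0.241 and 0.291. HOXD13, a gene of digit and genital development, was therefore higher per kb than HOXD11 and HOXD12, which lie between it and HOXD10. In HOXC the level was high at HOXC10, HOXC9, HOXC8 and HOXC4, and lower at HOXC6 (4.12 CPM per kb in H2O and 4.52 in WT) and HOXC5 (1.69 and 1.75). It was low towards the HOXC13 end, at HOXC11 (0.971 and 0.491), HOXC12 and HOXC13. HOXC5 (chr12:54032853-54035358) lies inside the annotated span of HOXC4 (chr12:54016931-54056030), which reaches the other end of the cluster. The span of HOXC6 (chr12:53990624-54030823) holds HOXC9 and HOXC8.

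HOXC4 led the order of levels in both control groups, with 17.3 CPM per kb in H2O (lowest 16.4, highest 18.3) and 12.0 in WT (11.8 to 12.3). In H2O the range of HOXC10 (17.1 to 17.4) lay inside that of HOXC4, so the order of these 2 genes was not resolved. HOXD8, HOXD9 and HOXC9 also overlapped in H2O, as did HOXD10 and HOXD1, and every other neighbouring pair among the members that passed was separate in both libraries. In WT the second place was held by HOXC8 (9.27), followed by HOXC10 (8.65), and HOXD8 overlapped with HOXC9 and HOXD1 with HOXD10. Among all genes above 0 in H2O, HOXC4 stood at percentile 82.4 and HOXC10 at percentile 82.3 of CPM per kb, and HOXD13 at percentile 24.3.

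**Figure D2:**
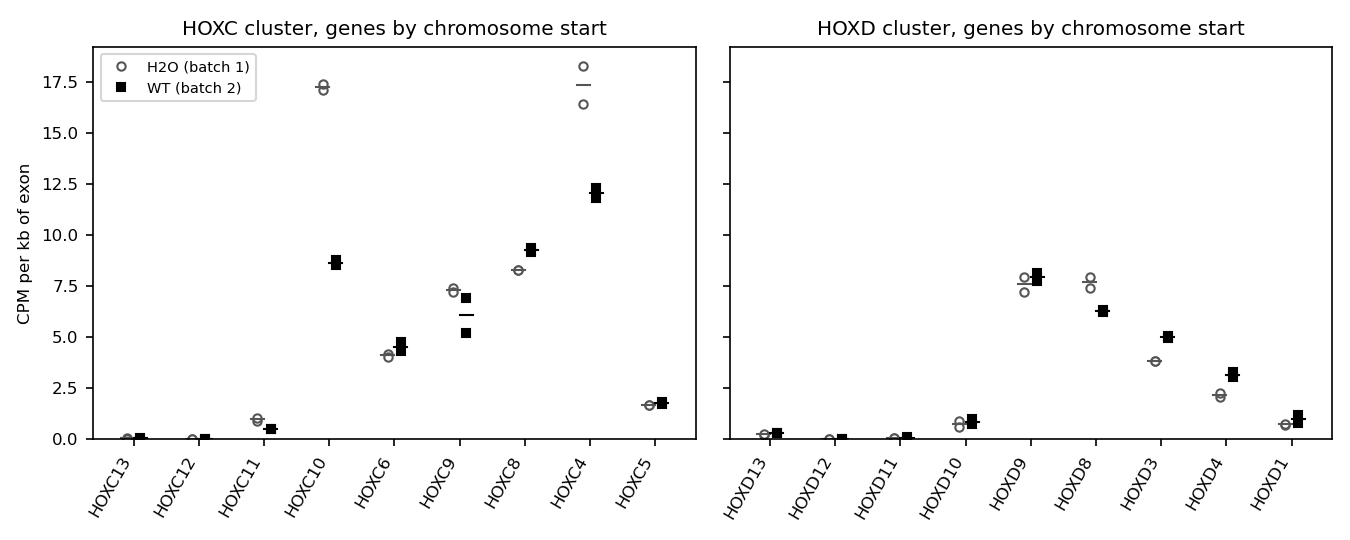
Level per kb of exon of the HOXC and HOXD genes in the 2 H2O libraries (open circles) and the 2 WT libraries (filled squares), with the group mean as a line. The level peaks at HOXC4 and HOXC10 in HOXC and at HOXD9 and HOXD8 in HOXD, and HOXC10 is 17.2 CPM per kb in H2O and 8.65 in WT.

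HOXC10 and HOXC4 had the largest absolute gaps in CPM between the H2O and WT groups, a measure that favours genes of high level. HOXC10 stood at 40.4 and 41.2 CPM in H2O against 20.2 and 20.8 CPM in WT, and HOXC4 at 50.5 and 45.3 against 34.0 and 32.6 CPM. HOXC11, a member of lower level, stood at 2.94 and 3.40 CPM in H2O against 1.56 and 1.64 CPM in WT. H2O and WT belong to separate batches counted with different versions of featureCounts, so a difference between cultures and one between batches cannot be told apart, and no test was made. HOXC8 (8.27 and 8.31 CPM per kb in H2O, 9.17 and 9.36 in WT) and HOXC6 (14.2 ± 0.348 against 15.6 ± 1.11 CPM, SD, n = 2) were close in the same libraries.

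Several members share exon bases with another gene, which affects what their counts hold. HOXC4 and HOXC6 share 484 exon bases on the same strand (17.5% of HOXC4), HOXC6 and HOXC9 share 73, and HOXD10 and HOXD11 share 452. HOXC5 shares 611 (33.9% of its exon bases) with the readthrough gene model AC012531.3, and HOXC10 shares 166 (7%) with it. Reads in these stretches count for neither gene under the stated counting, so the levels of these genes are uncertain. The share of exon bases does not give the share of reads lost, which was not measured. Because counting used no strand option, RNA of antisense genes is not separated either: AC009336.3 covers 989 exon bases (52.4%) of HOXD1 on the opposite strand, and HOXD-AS2 covers 379 of HOXD3. HOXD8, HOXD9, HOXD4 and HOXC8 had no such overlap in the annotations searched.

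The start regions of active and silent members were compared in RefSeq's promoter table (GRCh38.p14), which held entries for 20 of the 39 members. Windows of 250 bases upstream of each start were used. HOXD8, which fell in 2 separate comparisons below, is shown with the group 13 paralogs HOXD13 (low but detected) and HOXA13 (at most 2 counts in a library). Stretches are printed up to the first annotated exon, and capitals mark CG dinucleotides.
HOXD8 (chr2:176129455-176129693, plus strand): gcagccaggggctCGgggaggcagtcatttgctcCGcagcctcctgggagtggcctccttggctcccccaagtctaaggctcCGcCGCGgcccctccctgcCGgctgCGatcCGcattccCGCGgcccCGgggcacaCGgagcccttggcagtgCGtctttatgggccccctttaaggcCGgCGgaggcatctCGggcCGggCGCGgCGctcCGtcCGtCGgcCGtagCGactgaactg
HOXD13 (chr2:176092471-176092720, plus strand): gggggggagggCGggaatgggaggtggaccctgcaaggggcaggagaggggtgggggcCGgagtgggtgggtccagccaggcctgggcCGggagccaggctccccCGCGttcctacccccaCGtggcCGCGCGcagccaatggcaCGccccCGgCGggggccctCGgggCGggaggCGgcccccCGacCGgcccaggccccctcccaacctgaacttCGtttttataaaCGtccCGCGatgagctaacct
HOXA13 (chr7:27200107-27200341, minus strand): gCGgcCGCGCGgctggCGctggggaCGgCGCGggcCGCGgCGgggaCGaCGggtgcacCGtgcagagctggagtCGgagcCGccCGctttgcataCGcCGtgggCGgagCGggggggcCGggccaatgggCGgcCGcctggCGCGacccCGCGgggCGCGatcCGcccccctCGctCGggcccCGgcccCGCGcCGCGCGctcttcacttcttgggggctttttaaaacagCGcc

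The CG dinucleotide, which reads the same on both strands, is the main site of DNA methylation and the substrate of TET enzymes. The 250-base window held 28 of them at HOXD8, a number reached by 15.8% of the 34943 promoter windows in the table, 21 at HOXD13 (30.2%) and 40 at HOXA13 (2.17%). The 9 members with an entry that passed the filter had 4 to 31 with a median of 21. The 11 members with an entry that passed in neither batch had 0 to 40 with a median of 17.5 over 18 windows. The median over all windows was 11. HOXA3 alone gave several of the 18 windows, among them the window with 0, and HOXC4 and HOXC5 share a window that was counted for each. The medians therefore do not weigh genes equally. The active and silent members thus overlapped in CG content, with the silent HOXA13 the richest and the active HOXD4 the poorest among the members that passed. Methylation itself was not measured in these files.

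CoCl2 at 10 µM moved few HOX genes. Of the 14 members tested, 2 passed edgeR's quasi-likelihood test with a Benjamini-Hochberg adjusted p below 0.05 over all genes (called below), beside 22.7% of all 13636 genes tested. HOXC11 fell and HOXC9 rose, beside 11.1% of all genes called lower and 11.6% called higher. The libraries of the groups did not overlap for 4 of the 14 members, beside 58.5% of all genes tested. The log2 fold changes of all 14 members ran from -0.60 to 0.47, with a median of -0.05 (0.00 over all genes).

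CoCl2 at 50 µM moved 6 of the 14 members, beside 61.4% of all genes tested, so HOX genes were not called more often than the table as a whole. HOXD8, HOXC11, HOXC5 and HOXC4 fell (4 members, against 31.1% of all genes called lower), and HOXC6 and HOXC9 rose (2 members, against 30.4% called higher). The groups did not overlap for 9 of the 14 members, beside 78.5% of all genes. The median log2 fold change of the members was -0.10 and the range -0.50 to 0.25. Of the 7 HOXC genes tested 5 were called, and of the 7 HOXD genes tested 1 was. The summed level of the HOXC cluster was 144 and 139 CPM in H2O, 140 and 136 at 10 µM and 138 and 141 at 50 µM, so the groups overlapped. The summed level of the HOXD cluster was 53.1 and 55.8 CPM in H2O, 53.2 and 54.3 at 10 µM and 47.8 and 47.7 at 50 µM, with both 50 µM libraries below all the others.

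HOXD8, a trunk gene of paralog group 8 whose start region is printed above, had the clearest change. Its level was 19.4 and 20.9 CPM in H2O, 19.2 and 19.6 CPM at 10 µM and 13.8 and 15.1 CPM at 50 µM. Both 50 µM libraries lay below the other 4 libraries of the batch. The level fell by 28.1% from H2O to 50 µM (log2 fold change -0.48 ± 0.06 SE, edgeR adjusted p = 1.08e-11) and by 25.2% from 10 µM to 50 µM (-0.42 ± 0.06 SE, edgeR adjusted p = 4.68e-09), and the change from H2O to 10 µM was -0.06 (edgeR adjusted p = 0.519). HOXD9, its neighbour in the cluster, stood at 13.5 and 14.9 CPM in H2O, 14.9 and 15.4 CPM at 10 µM and 14.8 and 13.8 CPM at 50 µM. Its groups overlapped, with a log2 fold change at 50 µM of 0.00 ± 0.07 SE (edgeR adjusted p = 0.960). HOXC8, the paralog of HOXD8 in HOXC, stood at 8.27 and 8.31 CPM per kb in H2O, 8.06 and 8.36 at 10 µM and 8.16 and 7.90 at 50 µM, a log2 fold change of -0.05 ± 0.06 SE at the higher dose (edgeR adjusted p = 0.483).

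HOXC9 and HOXC6 were the members that rose. HOXC9, a trunk HOX gene known from studies of neuroblastoma differentiation, stood at 12.4 and 12.1 CPM in H2O, 14.2 and 13.6 CPM at 10 µM and 14.4 and 14.7 CPM at 50 µM. Both doses lay above H2O. The log2 fold change was 0.19 ± 0.07 SE at 10 µM (edgeR adjusted p = 0.0321, a call that ended when any 1 of the 4 libraries compared was left out) and 0.25 ± 0.07 SE at 50 µM (edgeR adjusted p = 0.000909). HOXC6, which gives thoracic identity, stood at 14.2 ± 0.348 CPM (SD, n = 2) in H2O, 14.7 and 14.2 CPM at 10 µM and 15.8 and 17.7 CPM at 50 µM. It rose at the higher dose alone among the tests made (0.24 ± 0.07 SE from H2O, edgeR adjusted p = 0.000914, and 0.22 ± 0.07 SE from 10 µM, edgeR adjusted p = 0.00335), and both calls were lost without replicate 2 of 50 µM (0.15, edgeR adjusted p = 0.125, and 0.13, edgeR adjusted p = 0.219). HOXC9 and HOXC6 share 73 exon bases.

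HOXC11, HOXC5 and HOXC4 fell. HOXC11, a lumbosacral gene, stood at 2.94 and 3.40 CPM in H2O, 2.31 and 2.44 CPM at 10 µM and 2.40 and 2.10 CPM at 50 µM. All 4 treated libraries lay below both H2O libraries, and the log2 fold change was -0.41 ± 0.15 SE at 10 µM (edgeR adjusted p = 0.0322) and -0.50 ± 0.16 SE at 50 µM (edgeR adjusted p = 0.00352). The call at 10 µM was lost without H2O replicate 2 (-0.31, edgeR adjusted p = 0.287) and without either 10 µM replicate (-0.38 and -0.46, edgeR adjusted p = 0.151 and 0.0932), and that at 50 µM without H2O replicate 2 (-0.39, edgeR adjusted p = 0.0711) or 50 µM replicate 2 (-0.40, edgeR adjusted p = 0.0817). HOXC5, a neck and upper trunk gene, stood at 3.04 and 3.05 CPM in H2O, 3.10 and 2.50 CPM at 10 µM and 2.30 and 2.46 CPM at 50 µM. It was called at 50 µM (-0.35 ± 0.16 SE, edgeR adjusted p = 0.0435), close to the threshold, and leaving out any 1 of the 4 libraries compared ended the call (edgeR adjusted p from 0.0884 to 0.171). HOXC4, the most expressed member, stood at 50.5 and 45.3 CPM in H2O, 47.6 and 43.8 CPM at 10 µM and 43.6 and 45.4 CPM at 50 µM. These groups overlapped, and its change at 50 µM (-0.10 ± 0.04 SE, edgeR adjusted p = 0.0206) was -0.02 without H2O replicate 1 (edgeR adjusted p = 0.696) and -0.08 without 50 µM replicate 1 (edgeR adjusted p = 0.175).

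The other members tested in batch 1 were not called. HOXC10, a lumbar motor neuron gene, stood at 40.4 and 41.2 CPM in H2O, 38.5 and 39.6 CPM at 10 µM and 39.7 and 39.4 CPM at 50 µM. HOXD3 stood at 13.5 and 13.7 CPM in H2O, 12.8 and 13.6 CPM at 10 µM and 13.1 and 12.4 CPM at 50 µM. HOXD4, a hindbrain gene, stood at 2.35 and 2.57 CPM in H2O, 2.65 and 2.19 CPM at 10 µM and 2.46 and 3.05 CPM at 50 µM. HOXC10 at both doses and HOXD3 at 50 µM lay below H2O in both libraries, by log2 fold changes of -0.05 to -0.09. HOXD1 stood at 1.35 and 1.36 CPM in H2O, 1.11 and 0.695 CPM at 10 µM and 1.02 and 0.924 CPM at 50 µM, and its treated libraries were all below H2O, with log2 fold changes of -0.60 ± 0.24 SE (edgeR adjusted p = 0.0531) and -0.48 ± 0.24 SE (edgeR adjusted p = 0.0717). An antisense transcript covers 52.4% of the exon bases of HOXD1. HOXD10 stood at 2.38 and 1.59 CPM in H2O, 1.82 and 1.75 CPM at 10 µM and 1.98 and 1.57 CPM at 50 µM. HOXD13 stood at 0.511 and 0.656 CPM in H2O, 0.655 and 0.952 CPM at 10 µM and 0.480 and 0.588 CPM at 50 µM. Both overlapped between H2O and each dose. From 10 µM to 50 µM, 2 of the 14 members were called (HOXC6 higher and HOXD8 lower, above), beside 52.8% of all genes tested, 26.2% higher and 26.5% lower. The groups did not overlap for 6 members, beside 74.5% of all genes.

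**Figure D3:**
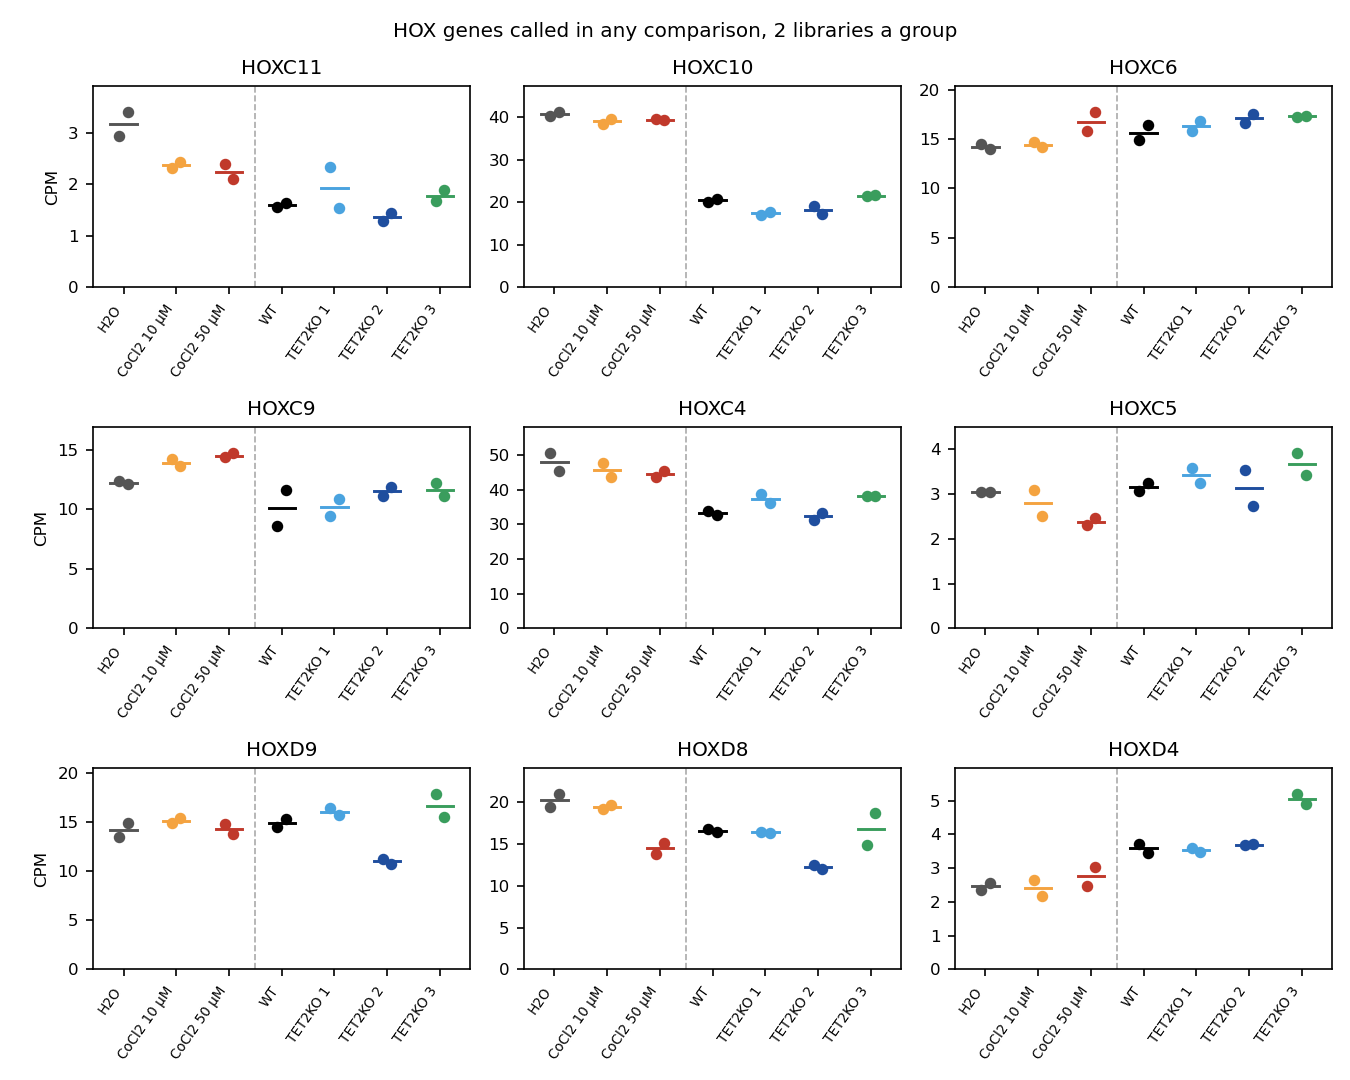
CPM of the 9 HOX genes called in any comparison, with 1 point for each library and a line at the mean of its group (2 libraries), and batch 1 left of the dashed line and batch 2 right of it. HOXD8 is lowest at 50 µM CoCl2 in batch 1 (13.8 and 15.1 CPM) and in TET2 knockout 2 in batch 2 (12.5 and 12.0 CPM), where HOXD9 is lowest too.

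Few HOX genes were called in the labelled TET2 knockouts. In knockout 1, 1 of the 15 members tested was called, beside 17.5% of all 14061 genes tested, and it fell (7.79% of all genes were called higher and 9.72% lower). In knockout 2, 2 members were called, beside 26.3%, and both fell (12.0% of all genes were called higher and 14.3% lower). In knockout 3, 2 members were called, beside 18.9%, and both rose (8.90% of all genes were called higher and 9.96% lower). The libraries did not overlap with WT for 7, 9 and 10 of the 15 members in knockouts 1, 2 and 3, beside 54.2%, 60.7% and 54.8% of all genes. These 5 calls fell on 5 different members. In 1 fit of all 14 libraries, however, HOXC4 was called in knockouts 1 and 3 and HOXC10 in knockouts 1 and 2, and without WT replicate 2 HOXC9 was called in knockouts 2 and 3. Tested directly in edgeR with 2 degrees of freedom, 5 members differed among the 3 knockouts, beside 37.6% of all genes: HOXD9, HOXD8, HOXC10, HOXC4 and HOXD4.

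HOXD8 and its neighbour HOXD9 fell together in knockout 2. HOXD8 stood at 16.7 and 16.4 CPM in WT, 16.4 and 16.3 CPM in knockout 1, 12.5 and 12.0 CPM in knockout 2 and 14.8 and 18.7 CPM in knockout 3. HOXD9, which patterns the lumbar region, stood at 14.5 and 15.3 CPM in WT, 16.4 and 15.7 CPM in knockout 1, 11.2 and 10.7 CPM in knockout 2 and 17.8 and 15.5 CPM in knockout 3. For both genes the knockout 2 libraries lay below the other 6 libraries of the batch. HOXD8 fell by 25.9% (log2 fold change -0.43 ± 0.10 SE, edgeR adjusted p = 0.000139) and HOXD9 fell by 26.4% (-0.44 ± 0.10 SE, edgeR adjusted p = 0.000174). In knockout 1 the log2 fold change was -0.01 for HOXD8 and 0.10 for HOXD9, and in knockout 3 it was 0.01 and 0.16, none of them called. The largest difference between knockouts was 0.44 for HOXD8 (edgeR adjusted p = 3.48e-05) and 0.61 for HOXD9 (edgeR adjusted p = 2.07e-08). The summed level of HOXD was 49.8 and 47.2 CPM in knockout 2 against 58.6 and 56.9 CPM in WT, 61.6 and 59.5 CPM in knockout 1 and 61.9 and 63.2 CPM in knockout 3.

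HOXD4 and HOXC4, the group 4 paralogs, rose in knockout 3. HOXD4 stood at 3.71 and 3.46 CPM in WT, 3.61 and 3.48 CPM in knockout 1, 3.68 and 3.71 CPM in knockout 2 and 5.19 and 4.91 CPM in knockout 3. The knockout 3 libraries lay above all others, by 41.2% over WT (0.50 ± 0.17 SE, edgeR adjusted p = 0.0215). HOXC4 stood at 34.0 and 32.6 CPM in WT, 38.7 and 36.1 CPM in knockout 1, 31.4 and 33.4 CPM in knockout 2 and 38.2 and 38.1 CPM in knockout 3. Its rise was 0.20 ± 0.07 SE in knockout 3 (edgeR adjusted p = 0.0186), beside 0.17 in knockout 1 (edgeR adjusted p = 0.0628) and -0.04 in knockout 2. Both calls were lost without WT replicate 2 (HOXD4 0.45, edgeR adjusted p = 0.132, and HOXC4 0.17, edgeR adjusted p = 0.152) and without knockout 3 replicate 1 (HOXD4 0.46, edgeR adjusted p = 0.167, and HOXC4 0.20, edgeR adjusted p = 0.0953). HOXD4 was also lost without WT replicate 1 (0.55, edgeR adjusted p = 0.0656) and HOXC4 without knockout 3 replicate 2 (0.20, edgeR adjusted p = 0.0540).

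HOXC10 fell in knockout 1. It stood at 20.2 and 20.8 CPM in WT, 17.0 and 17.7 CPM in knockout 1, 19.2 and 17.3 CPM in knockout 2 and 21.4 and 21.7 CPM in knockout 3. The knockout 1 libraries lay below WT, by a log2 fold change of -0.24 ± 0.08 SE (edgeR adjusted p = 0.0322), and the change was -0.17 in knockout 2 (edgeR adjusted p = 0.120) and 0.07 in knockout 3 (edgeR adjusted p = 0.613). Leaving out any of the 4 libraries compared ended the call, with edgeR adjusted p from 0.0848 to 0.169.

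The remaining members tested in batch 2 were not called against WT. HOXC8 stood at 22.2 and 22.6 CPM in WT, 23.8 and 24.3 in knockout 1, 22.9 and 23.6 in knockout 2 and 23.7 and 24.5 in knockout 3, so all 6 knockout libraries lay above WT (log2 fold changes 0.05 to 0.10). HOXC6 stood at 14.9 and 16.4 CPM in WT, 15.8 and 16.8 in knockout 1, 16.6 and 17.5 in knockout 2 and 17.2 and 17.3 in knockout 3. HOXC9 stood at 8.64 and 11.6 CPM in WT, 9.47 and 10.9 in knockout 1, 11.1 and 11.9 in knockout 2 and 12.2 and 11.1 in knockout 3, so the WT libraries of HOXC9 differed from each other as much as the groups did. HOXD3 stood at 18.0 and 17.5 CPM in WT, 20.5 and 19.0 in knockout 1, 18.7 and 16.7 in knockout 2 and 19.8 and 19.5 in knockout 3. HOXC5 stood at 3.07 and 3.25 CPM in WT, 3.59 and 3.25 in knockout 1, 3.53 and 2.73 in knockout 2 and 3.91 and 3.43 in knockout 3. Neither gene was called. HOXC11 stood at 1.56 and 1.64 CPM in WT, 2.34 and 1.54 in knockout 1, 1.29 and 1.45 in knockout 2 and 1.67 and 1.89 in knockout 3. HOXD1 stood at 2.20 and 1.53 CPM in WT, 2.03 and 2.14 in knockout 1, 1.33 and 1.41 in knockout 2 and 1.73 and 1.35 in knockout 3. The libraries of HOXC11 in knockout 1 and of HOXD1 in WT stood farthest apart, and for both genes the knockout 2 libraries lay below both WT libraries. HOXD10 stood at 2.62 and 2.02 CPM in WT, 2.13 and 2.19 in knockout 1, 1.90 and 1.85 in knockout 2 and 1.90 and 2.61 in knockout 3. HOXD13 stood at 0.691 and 0.713 CPM in WT, 0.494 and 0.494 in knockout 1, 0.431 and 0.615 in knockout 2 and 0.581 and 0.624 in knockout 3, all 6 below WT (-0.50 to -0.22, with standard errors of 0.41 to 0.43). HOXD11, the least expressed gene tested, stood at 0.0357 to 0.217 CPM over the 8 libraries and had log2 fold changes of 0.02 to 0.29 with standard errors of 0.90 to 0.95, so smaller changes were not detectable at this depth.

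**Figure D4:**
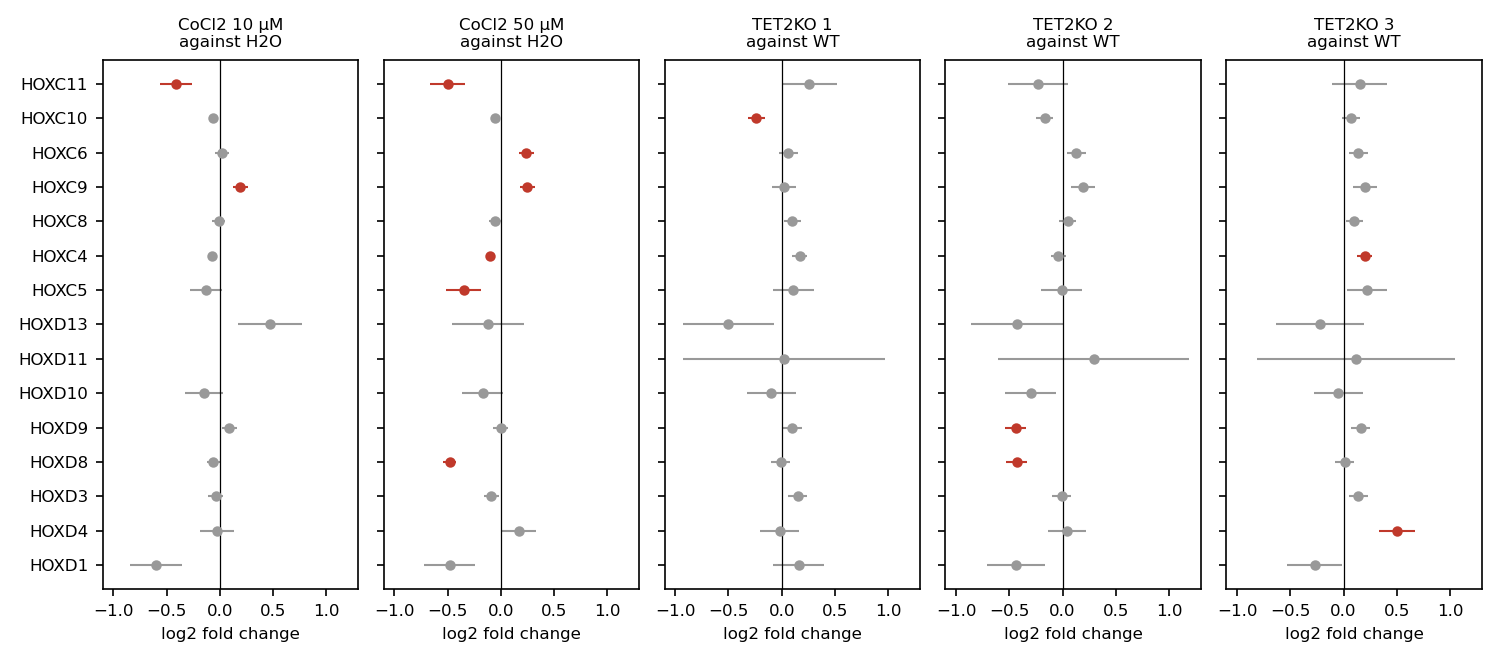
Log2 fold change with its standard error for each HOX gene tested, in order of chromosome start within HOXC and HOXD, against the control group of its batch. Genes called are red and genes not called are grey. HOXD8 is at -0.48 for 50 µM CoCl2 and -0.43 for knockout 2, and HOXD9 is at -0.44 for knockout 2 and 0.00 for 50 µM CoCl2.

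Markers of other cell types also differed between WT and the labelled knockouts. The summed level of 5 endothelial markers was 11.3 to 11.7 CPM in WT and 1.41 to 3.26 CPM over the knockouts, with the defining marker PECAM1 at 2.62 and 2.94 CPM in WT and 0 to 0.217 CPM in the knockouts. The sum of 7 mesenchymal markers was 1404 to 1424 CPM in WT and 906 to 1130 CPM in the knockouts. In knockouts 1, 2 and 3, 5, 3 and 5 of them were called lower, beside 9.72%, 14.3% and 9.96% of all genes. The largest changes among these were in COL3A1 (-3.38, -2.49 and -3.59) and FN1 (-2.45, -1.23 and -2.53). VIM changed little (0.09, 0.07 and -0.07) and was called in knockout 1 alone. In H2O, 10 µM and 50 µM CoCl2 the endothelial sum was 0.504 to 1.24 CPM. The mesenchymal sum was 1209 to 1218 CPM in H2O and 1584 to 1604 CPM at 50 µM, and the blood sum, nearly all of it the lysosomal gene CD68, was 5.12 to 5.37 and 18.9 to 19.1 CPM. Of the rise in the mesenchymal sum, VIM carried nearly all (1134 and 1139 CPM in H2O, 1512 and 1530 CPM at 50 µM). FN1 (0.35) was also called higher at 50 µM, and COL3A1 (-0.75) and CD44 (-0.09) were called lower. FOSL1 (0.59) and COL1A1 (-0.20) were not called. The sum of 5 epithelial markers was 9.43 to 10.0 CPM in H2O and 5.38 to 5.65 CPM at 50 µM, and it was 10.7 to 11.8 CPM in WT and 7.04 to 8.48 CPM over the knockouts. KRT19, an epithelial keratin, was called lower at 50 µM (-1.21) and in knockouts 1, 2 and 3 (-0.61, -0.46 and -1.09). KRT18 was called lower in knockouts 1, 2 and 3 (-2.10, -2.16 and -1.28). EPCAM (0.16, 0.49 and 0.47) and KRT8 (0.82, -0.63 and 0.68) were not called there, nor at 50 µM (-0.20 and -0.02). The 11 adrenergic markers summed to 9161 to 9380 CPM in WT. Their sum was 7039 to 7150 CPM in knockout 2 and 8959 to 9211 CPM in knockouts 1 and 3. It was 12137 to 12155 CPM in H2O, 12762 to 12828 CPM at 10 µM and 10789 to 10861 CPM at 50 µM. In knockout 2, 6 of the 10 tested were called (26.3% of all genes), 2 higher and 4 lower. The largest changes were MYCN (-0.72), GATA3 (0.42), CHGB (-0.37) and TH (-0.30). At 50 µM, 4 were called higher and 4 lower (61.4% of all genes called). The part of these cell type markers in the HOX changes was not tested. In bulk RNA, fewer cells with a gene active and less RNA per cell cannot be told apart.

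Of 8 TALE cofactors examined, from the PBX, MEIS and PKNOX proteins that bind DNA with HOX proteins, 7 were tested. At 50 µM CoCl2, 2 fell and 1 rose: PBX3 (-0.27), PBX2 (-0.24) and MEIS3 (0.36), where 61.4% of all genes were called. PBX3, a HOX partner, went from 71.4 and 71.1 CPM in H2O to 64.7 and 64.5 CPM at 10 µM and 60.5 and 58.2 CPM at 50 µM. In 10 µM CoCl2, 4 were called, beside 22.7% of all genes, with PBX2 (-0.15) and PBX3 (-0.14) lower and MEIS3 (0.33) and MEIS2 (0.11) higher. Among the knockouts, PBX3 (-0.17) and PBX4 (-0.87) fell in knockout 2 (26.3% of all genes called). In knockout 1 MEIS2 (-0.13) fell and MEIS3 (0.20) rose (17.5%), and in knockout 3 PBX3 rose (0.15, beside 18.9%).

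Of 19 genes of retinoic acid signalling, CDX factors and related inputs, 9 were tested in batch 1 and 10 in batch 2. At 50 µM CoCl2, 8 were called, 3 higher and 5 lower, beside 61.4% of all genes. The lower genes with the largest changes were ALDH1A3 (-1.44), which makes retinoic acid, CRABP2 (-1.34), which carries it to the nucleus, and the receptor RARG (-0.80), and CRABP1, another retinoic acid binding protein, rose (0.56). CRABP2 went from 228 and 231 CPM in H2O to 151 and 153 CPM at 10 µM and 89.6 and 91.0 CPM at 50 µM. In knockout 2, 7 of 10 were called, 3 higher and 4 lower, beside 26.3% of all genes. The receptor RARB (-1.25), ALDH1A3 (-0.96), CRABP2 (-0.96) and RARG (-0.87) were lower there. In the other knockouts CRABP2 moved the other way, from 129 and 136 CPM in WT to 174 and 172 CPM in knockout 1 and 178 and 176 CPM in knockout 3 (0.38 and 0.42), and it stood at 69.9 and 66.0 CPM in knockout 2. ALDH1A3 (-0.37), CRABP2 (-0.59) and RARG (-0.27) were also called lower at 10 µM CoCl2, where HOXD8 was not called (-0.06). A link between these genes and HOXD8 was not tested. Of the 24 nearest genes flanking the clusters, 20 were tested, of which 14 were called at 50 µM CoCl2 (61.4% of all genes), led by SNX10 (0.76), LNPK (0.22), HNRNPA3 (-0.20) and MTX2 (-0.19). In knockout 2, 9 of them were called (26.3% of all genes), led by SNX10 (0.59), CALCOCO1 (-0.24), ATF7 (0.19) and CBX5 (0.18). CDX2 and CDX4, direct activators of HOX genes in the embryo, had no count in any library.

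A list of 30 chromatin regulators of HOX genes held Polycomb and Trithorax genes and others such as CTCF and DOT1L. All 30 were expressed and tested. At 50 µM CoCl2, 16 were called, 9 higher and 7 lower, beside 61.4% of all genes. The Polycomb genes EZH1 (0.41) and JARID2 (0.32) were higher, and RNF2 (-0.35), a Polycomb ubiquitin ligase, was lower. At 10 µM, 5 were called, 3 higher and 2 lower, beside 22.7% of all genes. In knockout 2, 8 were called, beside 26.3% of all genes, and all rose, among them KMT2D (0.31), CBX2 (0.26), PHC3 (0.25) and CBX8 (0.20). Knockout 1 had 7 called, 2 higher and 5 lower, beside 17.5% of all genes, led by KMT2A (-0.45) and KMT2D (-0.35), histone H3 lysine 4 methyltransferases. Knockout 3 had 4 called, all lower, beside 18.9% of all genes, led by KDM6B (-0.21). The median log2 fold change of the list lay between -0.01 and 0.04 in these 5 comparisons.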

How the data were processed

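TRIzol-extracted RNA was made into strand-specific oligo-dT libraries, per the labels' protocols. Trimmomatic 0.36, STAR 2.6.1d and Subread 1.5.3 are named in the submitters' processing notes. The deposited values are raw counts per gene, made by the authors over GENCODE 33 protein-coding exons in GRCh38 with featureCounts 1.5.3 (batch 1) or 2.0.5 (batch 2) and no strand option, per the file headers. In batch 2 a count mostly stands for 1 read of a pair: 77.3% to 80.5% of counts from 1 to 10 were even, against 39.0% to 42.3% in batch 1.

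Counts were tested within each batch in edgeR 4.0.16 (R 4.3.3): filterByExpr by group (minimum count 10), TMM, glmQLFit with legacy = FALSE and robust = TRUE, glmQLFTest, and Benjamini-Hochberg adjustment over 13636 or 14061 genes. The negative binomial dispersion was held at or above 0.0001001. The residual degrees of freedom were 3 in batch 1 and 4 in batch 2. The same functions were tested on simulated data. Alternatives were RLE scaling, DESeq2 1.42.0, no filter, 1 fit of all 14 libraries, a replicate block, no dispersion floor, batch 2 counts divided by 2, and each replicate left out. Replicates of each group differed by more than counting noise (chi-square per gene 1.23 to 5.52) and were counted separately. Antisense genes were read from GENCODE 29, promoters from RefSeq.

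The members and lists were chosen with earlier results of these data known. Some genes of the other lists are not reported here. Every HOX gene called in a comparison is named, and other members tested are given by values per library. At most 4 called genes of another list are named per comparison, by size of change, and VIM is named besides.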

Additional observations from a re-analysis of the deposited data

Results flagged for a closer look

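Among the labelled TET2 knockouts, 5 HOX genes differed by a direct test of the 3 knockouts against each other (edgeR quasi-likelihood F-test, Benjamini-Hochberg adjusted). The largest difference in log2 level between 2 knockouts was 0.61 for HOXD9 (adjusted p = 2.07e-08), 0.51 for HOXD4 (adjusted p = 0.0127), 0.44 for HOXD8 (adjusted p = 3.48e-05), 0.31 for HOXC10 (adjusted p = 0.00257) and 0.24 for HOXC4 (adjusted p = 0.00270). HOXD9 and HOXD8 were lowest in knockout 2, HOXD4 was highest in knockout 3, HOXC10 was lowest in knockout 1, and HOXC4 was lowest in knockout 2. Without knockout 3 replicate 1 the difference of HOXD4 was 0.47 (adjusted p = 0.156), and without knockout 2 replicate 1 that of HOXC4 was 0.19 (adjusted p = 0.150). With 2 libraries a group, single libraries that stand apart could not be tested for.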

How the results depend on the processing

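HOXD8 kept its direction and its call under every alternative run, at 50 µM CoCl2 against H2O (-0.55 to -0.42) and in knockout 2 (-0.46 to -0.40), as did HOXD9 in knockout 2 (-0.48 to -0.41). In the comparisons that called it, no HOX gene changed direction under these alternatives, and the direction of members not called was not followed across them. The number of members called depended on the tool. With DESeq2 it was 0 at 10 µM, 2 at 50 µM (HOXD8 and HOXC9), 1 from 10 to 50 µM (HOXD8), 0 in knockout 1 and 1 in knockout 3 (HOXC4). In 1 fit of all 14 libraries it was 0 at 10 µM, 2 at 50 µM (HOXD8 and HOXC6), 1 from 10 to 50 µM (HOXD8) and 2 in knockout 1 (HOXC10 and HOXC4). Without the filter, HOXC4 (adjusted p = 0.0674) and HOXC5 (adjusted p = 0.0506) were no longer called at 50 µM, which left 4. Leaving out 1 replicate at a time gave 0 to 2 at 10 µM, 3 to 4 at 50 µM, 1 to 2 from 10 to 50 µM, 0 to 0 in knockout 1, 2 to 3 in knockout 2, 0 to 1 in knockout 3 and 4 to 5 among the knockouts. The cause of these differences was not tested, and a group reduced to 1 library was assumed to vary like the others. Replicate numbers did not pair the libraries (correlations of deviations -0.0543 to 0.0282), and with a replicate block the counts of calls stayed at 2, 6, 2, 1, 2, 2 and 5 in the order 10 µM, 50 µM, 10 to 50 µM, knockouts 1, 2 and 3 and among knockouts. Members under about 3 CPM rest on few counts, and the standard error was 0.30 for HOXD13 at 10 µM.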
